A study of Homo sapiens with 10 samples.

Results

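Immunoglobulin genes encode the antibody chains that a B cell displays as its antigen receptor. They were examined in U2932, an established cell line grown from a human diffuse large B cell lymphoma, which is a tumour of mature B cells. The set comprised every gene of the deposited table whose symbol begins with IGHV, IGKV or IGLV, together with the heavy chain constant genes IGHM, IGHD, IGHE, IGHG1 to IGHG4, IGHA1 and IGHA2 and the light chain constant genes IGKC and IGLC1 to IGLC7. By this rule 153 of 21174 genes were members. They were 56 heavy chain variable (IGHV), 46 kappa variable (IGKV) and 37 lambda variable (IGLV) genes, 9 heavy chain constant genes, IGKC and 4 lambda constant genes (IGLC1, IGLC2, IGLC3 and IGLC7).

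RNA was sequenced from 5 libraries of clones labelled CREBBP+/- (columns Het_6 to Het_10) and 5 libraries of clones labelled CREBBP+/+ (WT_1 to WT_5), all of U2932 and all grown in RPMI with serum. CREBBP encodes a histone acetyltransferase that works as a transcriptional coactivator. The sources used here do not say how the CREBBP copy was altered, how the clones were derived or whether they were cultured separately, and each p-value then reflects only how far these libraries spread. The numbers Het_6 to Het_10 match no labelled clone, and these columns stand for their group and not for particular clones.

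In a developing B cell, recombination joins a V segment to the J segment (and, in the heavy chain, a D segment) of its locus, and the joined exon is spliced to a constant region. Cells that descend from the same rearranged B cell therefore carry the same V gene in their heavy chain and in their light chain, apart from later mutations. IgM and IgD are made from a shared primary transcript by alternative processing, and the IgG, IgA and IgE constant regions lie downstream and are reached by class switch recombination. Most V promoters hold an octamer motif bound by the OCT1 and OCT2 factors (POU2F1 and POU2F2) with their B cell coactivator OBF1 (POU2AF1).

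The heavy chain V genes with the most reads are shown here as reference sequence from GRCh38, each as the exon that carries the bulk of the V region, written 5′ to 3′ on the minus strand. They are printed without their first 11 bases, which belong to the leader and are the same in all 3. These are genome sequences and not the rearranged or mutated copies of the line. They are IGHV4-39 (ENSG00000211959, chr14:106421711-106422007), which led its class, and the next 2, IGHV4-61 (ENSG00000211970, chr14:106639119-106639417) and IGHV4-28 (ENSG00000211952, chr14:106324254-106324549), with the bases that differ from IGHV4-39 in capitals.
IGHV4-39: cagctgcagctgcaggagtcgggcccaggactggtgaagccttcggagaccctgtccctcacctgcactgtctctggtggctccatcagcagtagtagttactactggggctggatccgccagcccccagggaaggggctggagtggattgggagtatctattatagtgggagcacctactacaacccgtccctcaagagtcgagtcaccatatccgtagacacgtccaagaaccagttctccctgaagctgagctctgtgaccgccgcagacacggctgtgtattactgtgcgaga
IGHV4-61: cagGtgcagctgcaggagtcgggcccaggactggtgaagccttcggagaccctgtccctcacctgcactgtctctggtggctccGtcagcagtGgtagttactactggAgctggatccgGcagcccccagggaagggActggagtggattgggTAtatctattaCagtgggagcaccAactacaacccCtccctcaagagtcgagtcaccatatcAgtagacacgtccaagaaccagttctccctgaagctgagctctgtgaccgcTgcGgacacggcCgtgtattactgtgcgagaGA
IGHV4-28: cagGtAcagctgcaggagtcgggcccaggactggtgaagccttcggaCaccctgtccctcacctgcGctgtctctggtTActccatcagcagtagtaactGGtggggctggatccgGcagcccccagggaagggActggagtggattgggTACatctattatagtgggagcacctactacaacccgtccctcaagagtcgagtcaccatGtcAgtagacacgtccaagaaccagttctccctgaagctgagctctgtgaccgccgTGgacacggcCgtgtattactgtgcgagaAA
Over the whole exon IGHV4-61 matched IGHV4-39 at 293 of 310 aligned positions (94.52%) and IGHV4-28 at 287 of 310 (92.58%). Bases of IGHV4-39 that IGHV4-28 lacks leave no mark in the printed sequence, but they count among its 23 differing positions.

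Of the leading kappa V genes, IGKV3-20 (ENSG00000239951) and IGKV3-11 (ENSG00000241351) had the same base at 280 of 299 aligned positions of the V exon (93.65%), whereas IGKV1-8 (ENSG00000240671) matched IGKV3-20 at 220 of 299 (73.58%).

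Library totals lay between 10615977 counts (Het_9) and 23020694 counts (Het_6). CREBBP was at 56.5 to 82.0 counts per 1000000 (CPM) in CREBBP+/- libraries and 99.2 to 135.1 CPM in CREBBP+/+ libraries, so the groups did not overlap. Average-linkage clustering of log2 CPM over 11910 genes was computed without the immunoglobulin genes, CREBBP and the MHC class II genes with their regulators. It was cut at 3 clusters, a number set beforehand from earlier results of these data. The clusters crossed the genotypes: Het_6, Het_7, WT_3, WT_4 and WT_5 (cluster 1), Het_8, WT_1 and WT_2 (cluster 2), and Het_9 and Het_10 (cluster 3). All 6 B cell markers of the fixed list had reads, with a summed level of 2017 to 3523 CPM in CREBBP+/- libraries and 1909 to 3438 CPM in CREBBP+/+ libraries. The summed level of 6 T cell markers was at most 1.42 CPM, with CD2 and CD3D at 0. The summed level of 4 NK cell markers was 2.65 to 4.05 CPM in Het_9 and Het_10 against at most 0.183 CPM elsewhere. NKG7, among these 4, was at 0 in each library, and all 4 were too low for testing.

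Immunoglobulin genes took between 1.21 and 2.63% of all counts of a library. Their summed level was 22378 CPM in Het_6, 22798 CPM in Het_7, 12101 CPM in Het_8, 14378 CPM in Het_9 and 17412 CPM in Het_10. In the CREBBP+/+ libraries it was 13559 CPM in WT_1, 13040 CPM in WT_2, 26321 CPM in WT_3, 21517 CPM in WT_4 and 24538 CPM in WT_5. The means were 17813 ± 4751 CPM in CREBBP+/- libraries and 19795 ± 6176 CPM in CREBBP+/+ libraries (SD, n = 5 each), a difference smaller than the SD of either group. These sums are 1.78% and 1.98% of all counts. They include IGKV1-8 and IGKV3-11, whose equal counts are described below. Without these 2 genes the means were 12697 ± 3710 CPM in CREBBP+/- libraries and 14129 ± 4876 CPM in CREBBP+/+ libraries (SD, n = 5 each). The share of all counts was then 0.828 to 1.96%. Ranges of the groups overlapped, and the 3 lowest values of all belonged to Het_8, WT_1 and WT_2. In bulk RNA, fewer cells that express a gene and less RNA per cell cannot be told apart.

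Reads were concentrated on few members. Of the 153 genes, 99 had at least 1 count in some library, 54 had none and 38 had 1 to 9 counts in all. Among V genes, 28 of 56 IGHV, 34 of 46 IGKV and 23 of 37 IGLV genes had a count. Between 47 and 63 V genes per library had at least 1 count. The filter on low counts used for testing left 32 members (8 IGHV, 8 IGKV, 4 IGLV, 8 heavy constant, IGKC and 3 lambda constant genes).

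The same heavy chain V gene led in every library. IGHV4-39, a member of the VH4 family (exons of 425 bases in all), took 108489 of the 118243 IGHV counts of the series (91.75%). Its share of IGHV counts was 91.8% in Het_6, 90.7% in Het_7, 93.4% in Het_8, 90.3% in Het_9 and 87.6% in Het_10. In the CREBBP+/+ libraries the share was 95.7% in WT_1, 95.4% in WT_2, 90.4% in WT_3, 91.7% in WT_4 and 94.1% in WT_5. The exact (Clopper-Pearson) 95% interval of the lowest share, in Het_10, ran from 87.0 to 88.2%, and that of the highest, in WT_1, from 95.1 to 96.2%. Such intervals cover counting error only, since reads without molecular identifiers are not independent molecules. The means were 90.8 ± 2.11% in CREBBP+/- libraries and 93.5 ± 2.31% in CREBBP+/+ libraries (SD, n = 5 each), and the groups overlapped.

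IGHV4-39 itself lay at 788 CPM in Het_6, 682 CPM in Het_7, 290.4 CPM in Het_8, 411 CPM in Het_9 and 494 CPM in Het_10. It lay at 325 CPM in WT_1, 381 CPM in WT_2, 817 CPM in WT_3, 534 CPM in WT_4 and 816 CPM in WT_5. The values spanned the same range in both groups, with the lowest in Het_8, WT_1 and WT_2. Its log2 fold change (CREBBP+/- over CREBBP+/+) was -0.13 (SE 0.32, edgeR adjusted p = 0.989), and leaving out Het_8, WT_3 or WT_5 turned the sign (range over single libraries left out -0.30 to 0.030). Set against the IgM constant region, IGHV4-39 had 6.75 to 8.24 counts per 100 IGHM counts in CREBBP+/- libraries and 6.03 to 8.86 in CREBBP+/+ libraries.

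The next heavy chain V genes were relatives of IGHV4-39. IGHV4-28 was next and IGHV4-61 came after it in 9 of 10 libraries, and Het_8 had them in the other order. IGHV4-28 lay at 5.20 to 33.6 CPM in CREBBP+/- libraries and 5.02 to 40.7 CPM in CREBBP+/+ libraries, or 1.48 to 5.71% of IGHV counts over all libraries. IGHV4-61 lay at 5.96 to 25.5 CPM in CREBBP+/- libraries and 4.53 to 29.7 CPM in CREBBP+/+ libraries. Both were lowest in cluster 2: IGHV4-28 was at 23.6 to 40.7 CPM in cluster 1, 5.02 to 6.44 CPM in cluster 2 and 15.3 to 32.2 CPM in cluster 3. Of the stretches of 50 bases in the IGHV4-61 exons, 79.1% occurred also in another member (most in IGHV4-59), against 18.3% for IGHV4-28 and 15.3% for IGHV4-39, so the assignment of reads among VH4 genes is uncertain. IGHV1-69D (2.71 to 12.8 CPM in CREBBP+/- libraries and 1.88 to 7.79 CPM in CREBBP+/+ libraries) and IGHV5-51 (0.659 to 2.27 CPM in CREBBP+/- libraries and 0.786 to 2.57 CPM in CREBBP+/+ libraries) completed the 5 highest.

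**Figure D1:**
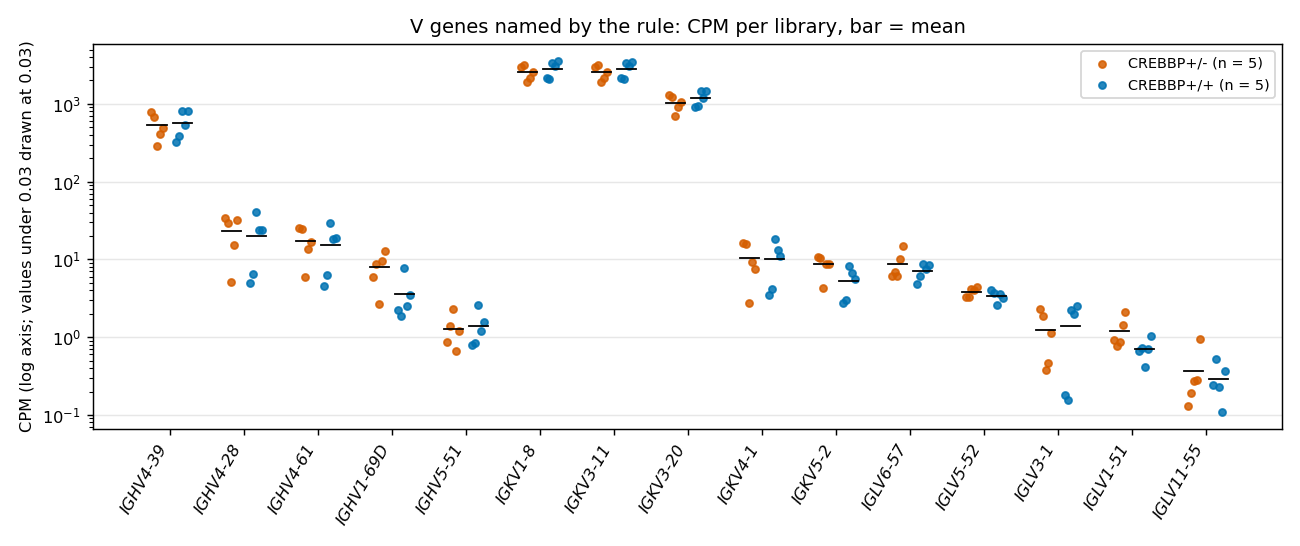
CPM per library (log axis) of the V genes named by the fixed rule, with CREBBP+/- libraries in orange, CREBBP+/+ libraries in blue (n = 5 each) and a bar at the mean. IGHV4-39 stands between 290.4 and 817 CPM while no other IGHV gene passes 40.7 CPM, and the colours overlap for each gene shown.

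In the kappa class 3 genes held nearly all counts. IGKV3-20, a VK3 gene, lay at 1295 CPM in Het_6, 1218 CPM in Het_7, 700.0 CPM in Het_8, 923 CPM in Het_9 and 1068 CPM in Het_10. It lay at 899 CPM in WT_1, 952 CPM in WT_2, 1448 CPM in WT_3, 1190 CPM in WT_4 and 1470 CPM in WT_5. The groups overlapped, with means of 1041 ± 238 CPM in CREBBP+/- libraries and 1192 ± 268 CPM in CREBBP+/+ libraries (SD, n = 5 each). The log2 fold change was -0.22 (SE 0.19, edgeR adjusted p = 0.988).

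IGKV1-8 and IGKV3-11 had more counts than IGKV3-20, but their values cannot be read as V gene usage. The deposited counts of the pair were the same number in 9 of 10 libraries and differed by 10 counts in the remaining one, WT_5. Counts of this size were deposited to 4 significant digits, so equal means equal to the nearest 10. Each of the pair had 89.6 to 90.6 counts per 100 IGKC counts in CREBBP+/- libraries and 88.0 to 89.6 in CREBBP+/+ libraries. In the GENCODE 44 annotation their exons share 0 bases, and their V exons are 73.65% identical. Among 6434 genes with at least 5000 counts in all, only 6 pairs stayed within 1% of each other in every library, and the other pairs included KCTD14 with NDUFC2-KCTD14 and C18orf32 with RPL17-C18orf32, genes named as parts of a readthrough transcript. The annotation the authors counted on is not given in the sources used here, and the cause of the equal counts was not tested.

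Without this pair, IGKV3-20 made up 97.4 to 98.5% of the remaining IGKV counts in CREBBP+/- libraries and 97.8 to 99.1% in CREBBP+/+ libraries. It had 32.8 to 39.3 counts per 100 IGKC counts in CREBBP+/- libraries and 34.7 to 40.6 in CREBBP+/+ libraries. IGKV4-1, the single gene of its family, and IGKV5-2 followed far below. IGKV4-1 lay at 2.76 to 16.0 CPM in CREBBP+/- libraries and 3.51 to 18.2 CPM in CREBBP+/+ libraries. The exons of IGKV4-1 and IGKV5-2 hold no stretch of 50 bases found in another member, whereas 56.3% of those of IGKV3-20 occur in another member, chiefly IGKV3D-20.

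**Figure D2:**
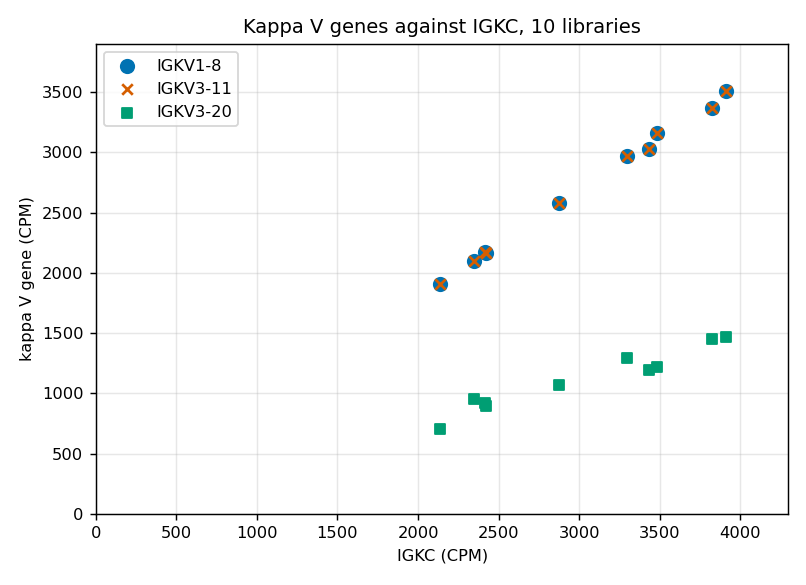
CPM of the 3 leading kappa V genes (vertical axis) against CPM of IGKC (horizontal axis), 1 point per gene and library over all 10 libraries. The symbols of IGKV1-8 and IGKV3-11 coincide in each library, and IGKV3-20 lies below them at 700.0 to 1470 CPM.

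Lambda V genes had few reads. They summed to 13.9 to 26.0 CPM in CREBBP+/- libraries and 10.6 to 16.8 CPM in CREBBP+/+ libraries, and kappa genes took 99.6 to 99.8% of all light chain V counts, or 97.7 to 99.0% without IGKV1-8 and IGKV3-11. IGLV6-57 (ENSG00000211640), the single functional gene of its family, led in 10 of 10 libraries with 1501 of 2993 IGLV counts (50.15%). It lay at 6.12, 6.95, 6.06, 10.1 and 14.7 CPM in Het_6 to Het_10 and at 4.78, 6.12, 8.71, 7.52 and 8.39 CPM in WT_1 to WT_5. The 2 highest values were those of Het_9 and Het_10. Its log2 fold change was 0.28 (SE 0.27, edgeR adjusted p = 0.989) and -0.17 (SE 0.17, edgeR adjusted p = 0.697) with the cluster as a covariate. IGLV5-52 was second in each library, at 3.26 to 4.40 CPM in CREBBP+/- libraries and 2.61 to 3.99 CPM in CREBBP+/+ libraries.

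Among the V genes with at least 100 counts, 17 of 20 held the octamer or its 7-base part in a window set by their annotated start. IGKV4-1, IGKV1D-8 and IGKV1D-43, named here for that, held neither in this window. Their annotated exons took 538, 534 and 532 bases in all, against 398 for IGKV1-8, and a motif outside the window would be missed. The 100 bases before the annotated start are shown for 5 of the V genes with the most reads, from GRCh38 on the minus strand, 5′ to 3′, with the octamer ATGCAAAT (ATTTGCAT on the other strand) or its 7-base part ATGCAAA, on either strand, in capitals. They are chr14:106422219-106422318 for IGHV4-39, chr14:106324761-106324860 for IGHV4-28, chr2:88992932-88993031 for IGKV1-8, chr2:89143161-89143260 for IGKV3-20 and chr2:89027732-89027831 for IGKV3-11.
IGHV4-39: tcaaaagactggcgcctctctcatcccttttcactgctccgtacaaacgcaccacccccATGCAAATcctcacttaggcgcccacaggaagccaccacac
IGHV4-28: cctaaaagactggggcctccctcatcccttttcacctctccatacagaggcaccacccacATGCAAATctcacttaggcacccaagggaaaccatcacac
IGKV1-8: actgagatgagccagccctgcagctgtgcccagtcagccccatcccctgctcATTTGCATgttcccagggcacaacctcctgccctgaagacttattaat
IGKV3-20: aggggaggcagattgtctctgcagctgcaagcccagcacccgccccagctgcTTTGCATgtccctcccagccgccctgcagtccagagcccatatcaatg
IGKV3-11: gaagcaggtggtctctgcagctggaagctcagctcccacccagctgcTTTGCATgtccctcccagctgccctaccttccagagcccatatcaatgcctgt
IGHV4-39, IGHV4-28 and IGKV1-8 carry all 8 bases, and IGKV3-20 and IGKV3-11 carry the 7-base form, which is contained in the octamer. Within 250 bases before and 50 after the start, the full octamer occurred in 49 of 56 IGHV genes (87.5%), 29 of 46 IGKV genes (63.0%) and 30 of 37 IGLV genes (81.1%). Each IGHV match read ATGCAAAT and each IGKV and IGLV match read ATTTGCAT in the direction of the gene. Over all V genes the share was 77.7%, against 1.77% of 35116 RefSeq promoters of the same length (GRCh38.p14). The 7-base form occurred in 85.6% of V genes and 4.46% of those promoters. The motif did not separate the V genes with reads from those without: it lay before 14 of 20 V genes with at least 100 counts (70.0%) and 42 of 54 with no count (77.8%). A match describes the letters in the window and not binding.

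The heavy chain of the line was counted mainly as IgM. IGHM (ENSG00000211899, chromosome 14, 105851705 to 105856218, GRCh38, minus strand), the constant region of IgM, lay at 9565 CPM in Het_6, 9827 CPM in Het_7, 4300 CPM in Het_8, 5643 CPM in Het_9 and 6992 CPM in Het_10. It lay at 4769 CPM in WT_1, 4303 CPM in WT_2, 11944 CPM in WT_3, 8853 CPM in WT_4 and 9911 CPM in WT_5. The groups overlapped widely, and the mean was 7265 ± 2416 CPM in CREBBP+/- libraries and 7956 ± 3318 CPM in CREBBP+/+ libraries (SD, n = 5 each). The log2 fold change was -0.15 (SE 0.32, edgeR adjusted p = 0.989), with a range of -0.30 to 0.032 when single libraries were left out. The sign turned without WT_3.

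IGHM made up 88.8 to 93.3% of heavy constant counts in CREBBP+/- libraries and 88.7 to 90.7% in CREBBP+/+ libraries. The means were 91.3 ± 1.86% in CREBBP+/- libraries and 89.7 ± 0.771% in CREBBP+/+ libraries (SD, n = 5 each). The 2 highest shares were those of Het_9 (93.0%, exact 95% interval 92.8 to 93.1%) and Het_10 (93.3%, interval 93.2 to 93.4%). Per kilobase of exon the share of IGHM was 93.1 ± 1.58% in CREBBP+/- libraries and 91.4 ± 1.12% in CREBBP+/+ libraries.

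The switched isotypes were lower by more than an order of magnitude per length. As mean CPM per kilobase of exon over all 10 libraries, IGHM stood at 4068, IGHG1 at 149.9, IGHA1 at 96.9, IGHG3 at 68.4 and IGHD at 31.7. IGHA2 followed at 7.91, IGHG2 at 0.287, IGHG4 at 0.267 and IGHE, the IgE constant region, at 0.0424. IGHG1 was at 223 to 652 CPM in CREBBP+/- libraries and 216 to 587 CPM in CREBBP+/+ libraries, and it took 4.88 ± 0.774% of heavy constant counts in CREBBP+/- libraries and 4.74 ± 0.499% in CREBBP+/+ libraries (SD, n = 5 each). The IgG genes share sequence (54.9% of the 50-base stretches of IGHG1 occur in another member), as do IGHA1 and IGHA2 (35.5 and 35.3%), so counts within each family are uncertain.

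IGHG3, the most upstream IgG gene, lay at 281.5 CPM in Het_6, 220.6 CPM in Het_7, 173.9 CPM in Het_8, 93.2 CPM in Het_9 and 108.0 CPM in Het_10. It varied less in CREBBP+/+ libraries, at 226.6 CPM in WT_1, 219.8 CPM in WT_2, 232.5 CPM in WT_3, 221.6 CPM in WT_4 and 201.4 CPM in WT_5. Only Het_8, Het_9 and Het_10 lay below the CREBBP+/+ range. The log2 fold change was -0.35 (SE 0.27, edgeR adjusted p = 0.988), and it was 0.016 (edgeR adjusted p = 1.00) without Het_9 and Het_10, an alternative added after the data were seen.

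IGHD, the constant region of IgD, spread over a wider fold range than IGHM, IGHG1, IGHG3, IGHA1 or IGHA2. It lay at 119.7 CPM in Het_6, 77.8 CPM in Het_7, 1.08 CPM in Het_8, 6.59 CPM in Het_9 and 9.98 CPM in Het_10. It lay at 1.09 CPM in WT_1, 0.523 CPM in WT_2, 92.3 CPM in WT_3, 132.0 CPM in WT_4 and 91.5 CPM in WT_5. Each group thus held libraries near 1 CPM and libraries near 100 CPM. The log2 fold change had an SE larger than itself (-0.57, SE 1.35, edgeR adjusted p = 0.989).

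The levels of IGHD separated the 3 clusters without overlap. Those of IGHM, IGHG1, IGHA2, IGHV4-39, IGHV4-61, IGKV4-1, IGLV3-1, IGKV1-8 and IGKV3-11 did so too, in the same order and with smaller fold differences. For IGHG1 they were 532 to 652 CPM in cluster 1, 216 to 227 CPM in cluster 2 and 251 to 321 CPM in cluster 3. IGHD was at 77.8 to 132.0 CPM in cluster 1, 0.523 to 1.09 CPM in cluster 2 and 6.59 to 9.98 CPM in cluster 3, so the mean of cluster 1 was 114-fold that of cluster 2 and 12.4-fold that of cluster 3. IGHM differed far less, with a mean 2.25-fold that of cluster 2 and 1.59-fold that of cluster 3. Per 100 IGHM counts there were 0.773 to 1.49 IGHD counts in cluster 1, 0.0122 to 0.0252 in cluster 2 and 0.117 to 0.143 in cluster 3. Within cluster 1, IGHD was at 119.7 and 77.8 CPM in the CREBBP+/- and 92.3, 132.0 and 91.5 CPM in the CREBBP+/+ libraries. Within cluster 2 it was at 1.08 CPM in the CREBBP+/- and 1.09 and 0.523 CPM in the CREBBP+/+ libraries. The summed B cell markers and the summed stromal and epithelial markers were lowest in cluster 2. The plasma cell sums of cluster 2 overlapped those of clusters 1 and 3. The 6 B cell markers summed to 3063 to 3523 CPM in cluster 1, 1909 to 2196 CPM in cluster 2 and 3106 to 3208 CPM in cluster 3. The 6 plasma cell markers summed to 664 to 1033 CPM in cluster 1, 519.9 to 669 CPM in cluster 2 and 594 to 643 CPM in cluster 3. The 4 stromal and epithelial markers, all of which had reads, summed to 20.7 to 26.7 CPM in cluster 1, 1.73 to 13.8 CPM in cluster 2 and 25.1 to 25.8 CPM in cluster 3. Their part in the levels of IGHD, IGHM, IGHV4-28 and the other immunoglobulin genes was not tested. The clusters come from the expression data themselves, so these are descriptions with no test. How many of all genes separate the clusters was not counted, so the separation cannot be called particular to immunoglobulin genes. Cluster 3 holds no CREBBP+/+ library, so genotype and cluster cannot be told apart there.

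**Figure D3:**
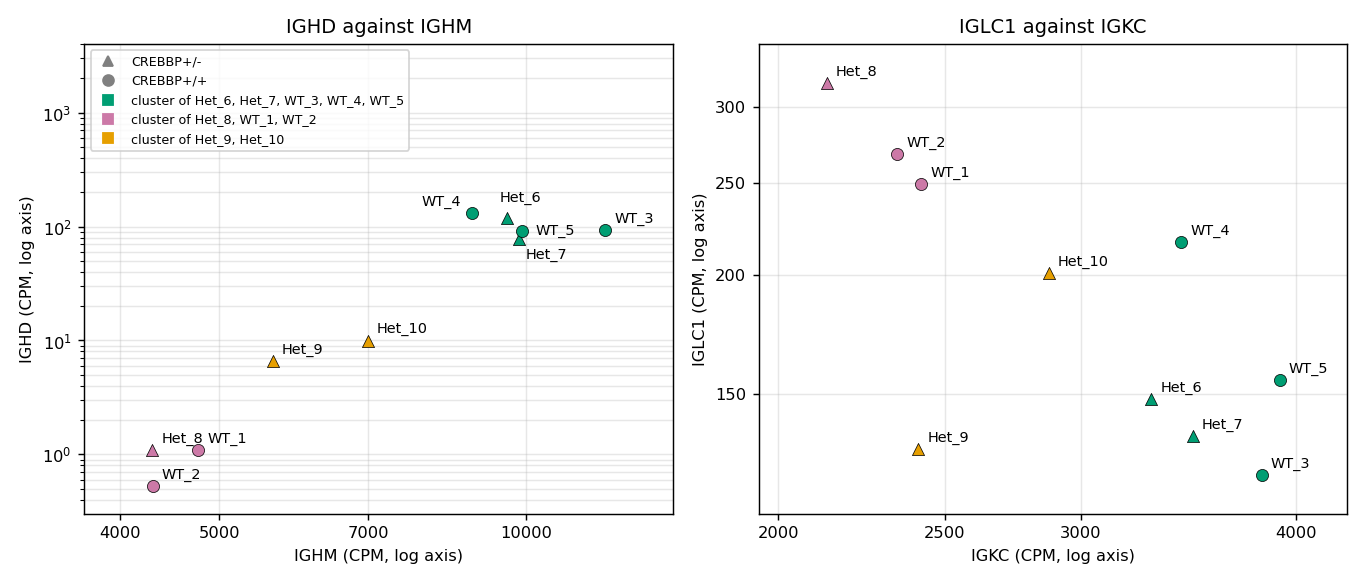
CPM of IGHD against IGHM (left) and of IGLC1 against IGKC (right) on log axes, 1 point per library, with triangles for CREBBP+/- and circles for CREBBP+/+ libraries and colours for the 3 library clusters. IGHD falls into 3 separate levels (0.523 to 1.09, 6.59 to 9.98 and 77.8 to 132.0 CPM) that follow the clusters, and CREBBP+/- and CREBBP+/+ libraries lie together in clusters 1 and 2.

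Kappa was the light chain. IGKC (ENSG00000211592, chromosome 2, 88857161 to 88857683, minus strand), the kappa constant region, lay at 3297 CPM in Het_6, 3486 CPM in Het_7, 2134 CPM in Het_8, 2413 CPM in Het_9 and 2875 CPM in Het_10. It lay at 2422 CPM in WT_1, 2346 CPM in WT_2, 3824 CPM in WT_3, 3432 CPM in WT_4 and 3915 CPM in WT_5. The groups overlapped, with the lowest value in Het_8 and the highest in WT_5. The log2 fold change was -0.19 (SE 0.19, edgeR adjusted p = 0.989). Per kilobase of exon IGKC averaged 5764 CPM, above IGHM at 4068 CPM.

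The kappa share of light chain constant counts was 95.3% in Het_6, 96.0% in Het_7, 85.4% in Het_8, 94.7% in Het_9 and 93.3% in Het_10. It was 89.3% in WT_1, 88.3% in WT_2, 96.6% in WT_3, 93.5% in WT_4 and 96.0% in WT_5. The group means were 92.9 ± 4.34% in CREBBP+/- libraries and 92.8 ± 3.78% in CREBBP+/+ libraries (SD, n = 5 each), and the 3 lowest shares were those of cluster 2. The lambda side was almost entirely IGLC1, at 148.0, 135.4, 318.0, 131.0 and 200.9 CPM in Het_6 to Het_10 and at 249, 268, 123, 216.5 and 154.8 CPM in WT_1 to WT_5. IGLC1 was highest in the 3 libraries of cluster 2, at 249 to 318 CPM, against 123 to 216.5 CPM in cluster 1. All 460 exon bases of IGLC1 lie inside an exon of IGLL5, a lambda-like gene that can be transcribed without V-J joining, and IGLC1 had 47.9 to 63.1 counts per 100 IGLL5 counts, so reads of these overlapping genes cannot be told apart. IGLC2 behaved likewise, at 37.5 to 43.1 CPM in cluster 2 and 3.39 to 17.9 CPM elsewhere.

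**Figure D4:**
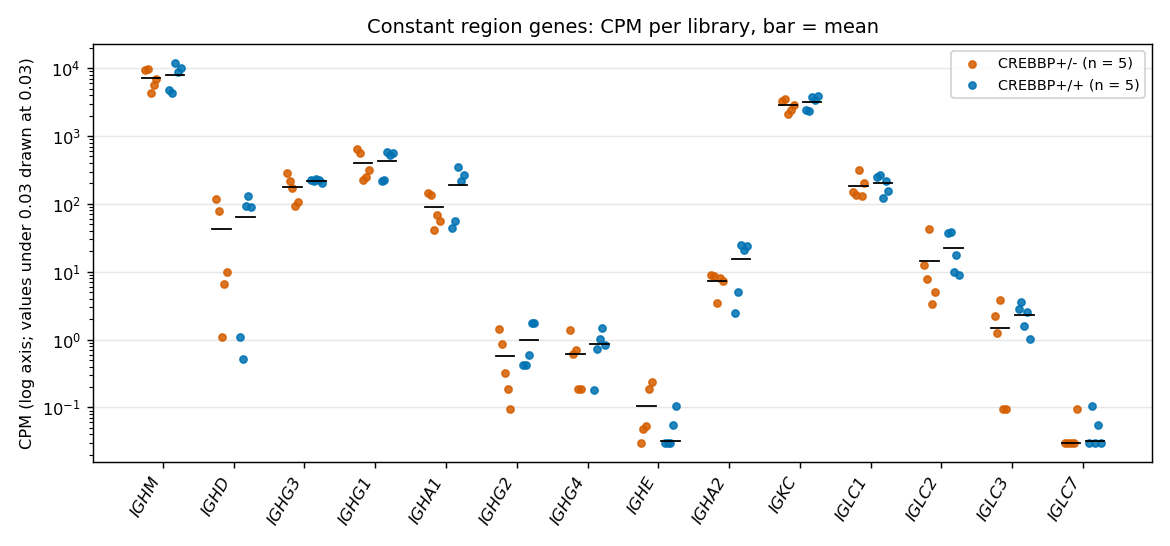
CPM per library (log axis, values under 0.03 drawn at 0.03) of the 14 constant genes, with CREBBP+/- libraries in orange, CREBBP+/+ libraries in blue (n = 5 each) and a bar at the mean. IGHM and IGKC stand above all others, IGHD spreads from 0.523 to 132.0 CPM within and across both groups, and the colours overlap for each gene.

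No immunoglobulin gene was called between CREBBP+/- and CREBBP+/+ libraries. The edgeR quasi-likelihood test over 11961 genes called 0 of the 32 tested members and 0 genes in all (0%) at a Benjamini-Hochberg adjusted p under 0.05. With no adjustment, 2 members had p under 0.05 with higher values in CREBBP+/- libraries and 0 with lower values. Over all genes tested there were 596 such genes (4.98%), of which 285 were higher (2.38%) and 311 lower (2.60%). DESeq2 called 34 of 13071 genes (0.26%) and 0 members, and limma-voom called 0 genes. The median log2 fold change was -0.13 over the tested members and -0.01 over all genes. Exact two-sided permutation tests of the CPM of 35 members, not adjusted, gave p from 0.00794 (IGHV1-69, the smallest that 5 against 5 libraries allow) to 0.952.

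The 2 members at an unadjusted p under 0.05 were close copies of each other. IGHV1-69, named here after its values were seen, lay at 0.521 CPM in Het_6, 0.767 CPM in Het_7, 0.596 CPM in Het_8, 0.942 CPM in Het_9 and 1.61 CPM in Het_10. It lay at 0.363 CPM in WT_1, 0.105 CPM in WT_2, 0.458 CPM in WT_3, 0.165 CPM in WT_4 and 0.155 CPM in WT_5. Each CREBBP+/- library lay above each CREBBP+/+ library, as it did for 69 of all genes tested (0.577%), while 45 genes (0.376%) had each CREBBP+/- library below each CREBBP+/+ library. No other tested member showed a gap in either direction. These values rest on 107 counts in all. The log2 fold change was 1.77 (SE 0.48, edgeR unadjusted p = 0.00381, adjusted p = 0.842). For IGHV1-69D the log2 fold change was 1.12 (SE 0.47, edgeR adjusted p = 0.977), and 74.2% of the 50-base stretches of IGHV1-69 occur in IGHV1-69D, so reads may be split between them. In both genes the highest values were those of Het_9 and Het_10, whose summed NK cell markers also stood apart, although NKG7 was at 0. The part of the markers in this was not tested.

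Most tested V genes had fitted values above 0, but those with the most reads had them below, as did the constant genes. Of the 20 tested V genes, 14 had a log2 fold change above 0 and 6 below (median 0.13, against -0.01 over all genes). Over all 11961 genes tested, 5695 lay above 0 and 6266 below. All 12 tested constant genes were below 0 (median -0.50), from -1.09 for IGHA2 to -0.10 for IGHG1. With the cluster as a covariate the medians were 0.05 for V genes and -0.07 for constant genes, and IGHG1, IGHG4 and IGLC3 lay above 0. The genes with the most reads on either side (IGHV4-39, IGKV3-20, IGHM, IGKC) lay between -0.22 and -0.13.

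**Figure D5:**
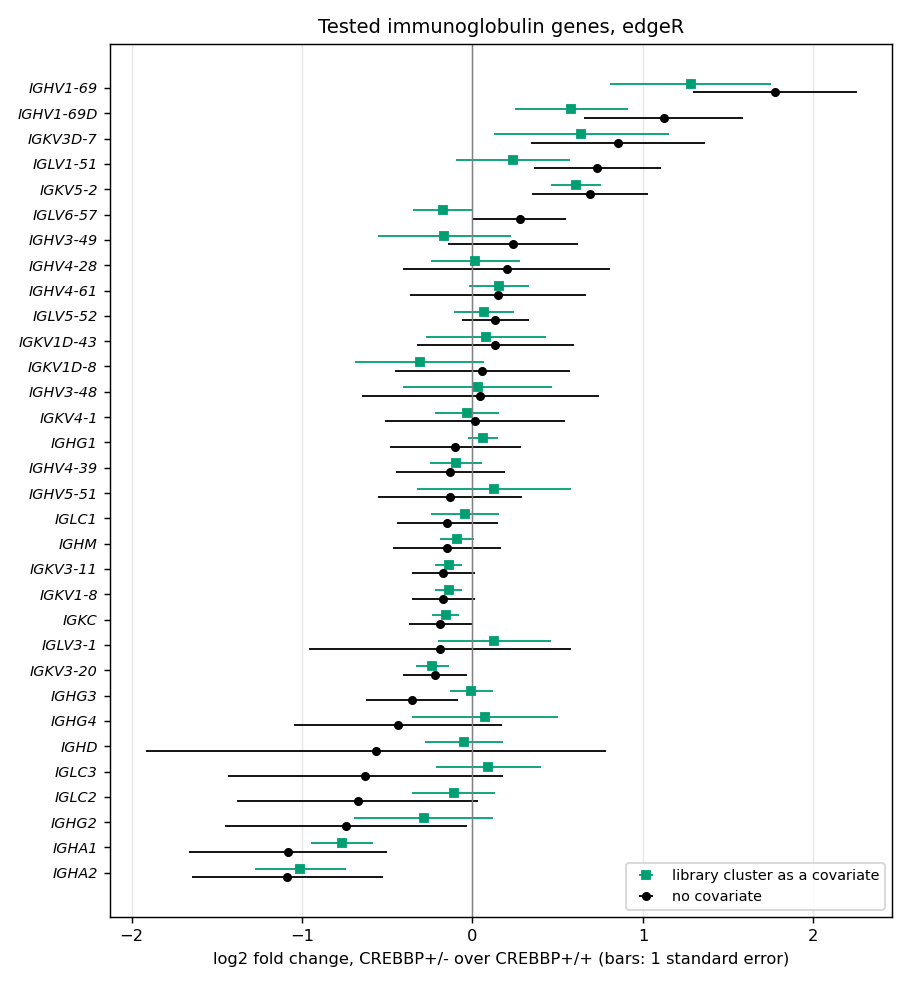
Log2 fold change (CREBBP+/- over CREBBP+/+) of the 32 tested immunoglobulin genes with 1 standard error, from edgeR with no covariate (black) and with the library cluster as a covariate (green). IGHV1-69 lies highest at 1.77 and IGHA2 lowest at -1.09 without the covariate, and most bars, those of IGHD and IGHG3 among them, are shorter with it.

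IGHA1, the IgA1 constant region, also varied between clusters. It lay at 145.9, 133.9, 40.7, 68.2 and 55.7 CPM in Het_6 to Het_10 and at 43.7, 55.9, 349, 219 and 266 CPM in WT_1 to WT_5. Over all libraries the log2 fold change was -1.08 (SE 0.58, edgeR adjusted p = 0.986). Within cluster 1 the 2 CREBBP+/- libraries (145.9 and 133.9 CPM) lay below the 3 CREBBP+/+ libraries (349, 219 and 266 CPM), and within cluster 2 Het_8 (40.7 CPM) lay below WT_1 and WT_2 (43.7 and 55.9 CPM). How many of all genes tested showed the same order within both clusters as IGHA1 was not counted. With the cluster as a covariate the log2 fold change was -0.76 (SE 0.18, edgeR adjusted p = 0.214). IGHA2 gave -1.01 (SE 0.27, edgeR adjusted p = 0.228) in the same model.

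IGKV5-2 lay on the other side within clusters. It was at 10.9 and 10.4 CPM in Het_6 and Het_7 against 8.25, 6.70 and 5.59 CPM in WT_3, WT_4 and WT_5, and at 4.33 CPM in Het_8 against 2.72 and 3.04 CPM in WT_1 and WT_2. The share of all genes tested with this order within both clusters was not counted either. For IGKV5-2 the log2 fold change was 0.69 (SE 0.34, edgeR adjusted p = 0.977) without and 0.61 (SE 0.15, edgeR adjusted p = 0.211) with the covariate. In the model with the covariate, 2 members were higher and 3 lower at an unadjusted p under 0.05 (IGKV5-2 and IGHV1-69, and IGHA1, IGHA2 and IGKV3-20), against 1516 of all genes (12.7%) in either direction, and 0 genes were called after adjustment. That model draws its contrast from Het_6, Het_7 and Het_8, since cluster 3 has no CREBBP+/+ library.

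The genes that work with immunoglobulin were described by lists. Of the receptor partners, 10 of 10 were tested and 0 called (median log2 fold change -0.14). CD79A, which pairs with CD79B to signal for the receptor, was at 653 and 671 CPM in Het_9 and Het_10 and at 369 to 496 CPM elsewhere, and CD79B was at 262 to 311 CPM in CREBBP+/- libraries and 228 to 430.5 CPM in CREBBP+/+ libraries.

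Among 15 octamer and enhancer factors 0 were called (median log2 fold change -0.08). POU2AF1, the octamer coactivator, was at 951 to 1282 CPM in cluster 1, 307.5 to 358.5 CPM in cluster 2 and 603 to 685.5 CPM in cluster 3, the order in which IGHM and IGHD stood. POU2F2 was at 548 to 716 CPM in cluster 1, 283 to 355 CPM in cluster 2 and 488 to 541 CPM in cluster 3. Both genes had overlapping groups (POU2AF1 log2 fold change -0.31, SE 0.44, edgeR adjusted p = 0.989). EBF1 was also lowest in cluster 2 (19.9 to 31.1 CPM). TCF4 stood in another order, at 850.5 to 956 CPM in cluster 1, 959 to 1217 CPM in cluster 2 and 1229 to 1285 CPM in cluster 3. In cluster 3 MEF2C was highest (246 to 249 CPM) and IKZF1 lowest (274 to 275 CPM). The part of these factors in the immunoglobulin levels was not tested.

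Among 20 genes of class switching and hypermutation 0 were called (median log2 fold change -0.03). The V(D)J recombination list had 7 of 11 genes tested and 0 called (median log2 fold change -0.05). RAG1, which cuts at V, D and J segments together with RAG2, was at 0.110 to 0.478 CPM in cluster 1, 0.837 to 1.14 CPM in cluster 2 and 0.899 to 1.32 CPM in cluster 3. RAG2 and DNTT, of which DNTT extends the cut ends, were at no more than 0.0946 CPM in any library. Among 14 genes of the secretory switch 0 were called (median log2 fold change -0.21), and JCHAIN, which joins IgM into polymers, was at 261 to 392 CPM in CREBBP+/- libraries and 297 to 607 CPM in CREBBP+/+ libraries.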

How the data were processed

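Total RNA isolated on columns was turned into TruSeq RNA libraries, per the labels' protocols. Raw counts for each Ensembl gene were deposited by the authors, 1 column per library. Named in the submitters' processing notes, with no version or role, are STAR, featureCounts, FastQC, DESeq2 and the build GRCh38. The sources used here do not give the annotation, the use of strand or the handling of reads that match several genes, so reads of near-identical or overlapping immunoglobulin genes may be split or lost. Counts of 10000 or more were deposited to 4 significant digits. Symbols were found for 20804 of 21174 identifiers, and coordinates and exon lengths are those of GENCODE 44 on GRCh38. The rule for members was applied to the symbols.

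CPM are counts scaled to a library total of 1000000, computed from the deposited counts. CREBBP+/- libraries were compared with CREBBP+/+ libraries (5 each) by the two-sided quasi-likelihood test of edgeR 4.0.16 (R 4.3.3) with TMM, robust dispersions and filterByExpr (minimum count 10, minimum total 15), which left 11961 genes, with Benjamini-Hochberg adjustment over all of them and a threshold of 0.05. The procedure was tested on simulated counts. Alternatives were DESeq2 1.42.0, limma-voom (limma 3.58.1), other scalings and filters, the library cluster as a covariate and each library left out. Single CPM values were compared by exact permutation (scipy 1.17.1), and shares have exact binomial intervals. Sequences and motifs were read from the GRCh38 genome, and the promoter background from RefSeq.

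The members, gene lists and tests were chosen with earlier results of these data known. Named were all constant genes, the 5 V genes of each class with the highest mean CPM and those among the 3 highest of any library, and up to 4 genes with the smallest p of each list plus JCHAIN, CD79A, CD79B, POU2AF1 and POU2F2. Some genes and sequences named by this rule are not reported here.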

Additional observations from a re-analysis of the deposited data

Results flagged for a closer look

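Of 70 groups of 5 values examined, 6 held a library whose gap to the nearest other library was large against the range of its group. For independent and normally spread values chance gives about 1 in 20 (3.5 of 70). The groups share genes and libraries and are not independent, so the 6 cannot be held against that rate. Het_8 accounted for 3 of the 6, among CREBBP+/- libraries. Its kappa share of light chain constant counts was 85.4%, and the next was 93.3%. Its IGLC2 level was 43.1 CPM, and the next was 12.5 CPM. Its IGHA2 level was 3.46 CPM, and the next was 7.38 CPM. Het_8 shares its cluster with WT_1 and WT_2, which had kappa shares of 89.3 and 88.3%, 37.5 and 38.2 CPM of IGLC2, and 2.48 and 4.97 CPM of IGHA2. Het_10 stood above the other CREBBP+/- libraries in IGLV11-55, at 0.946 CPM with the next at 0.283 CPM. It was also the only CREBBP+/- library with a count of IGLC7 (2 counts, 0.0946 CPM). Among CREBBP+/+ libraries WT_3 stood above the others in IGHV1-69D, at 7.79 CPM with the next at 3.47 CPM.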

How the results depend on the processing

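No tested member passed the threshold under any alternative, and the smallest adjusted p was 0.211 (IGKV5-2 with the cluster as a covariate). Over all genes, 34 were called with DESeq2 and 0 to 1 when single libraries were left out (1 without Het_6), against 0 in the main test. The difference in summed CPM, -1981 over all libraries, was -702.5 without Het_9 and Het_10 and -1432 without IGKV1-8 and IGKV3-11, both alternatives added after the data were seen. Of 567 fitted log2 fold changes of 32 members under alternatives, 511 kept their direction. The 56 others belonged to 17 members, and none was called on either side of 0.

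With limma-voom the log2 fold change was 0.27 for IGLV3-1 and 0.030 for IGHD. With the cluster as a covariate it was 0.13 for IGHV5-51, -0.033 for IGKV4-1, -0.17 for IGLV6-57, 0.13 for IGLV3-1, 0.062 for IGHG1, 0.074 for IGHG4, 0.092 for IGLC3, -0.31 for IGKV1D-8 and -0.16 for IGHV3-49. Without Het_9 and Het_10 it was 0.020 for IGHV4-39, 0.11 for IGHV5-51, -0.17 for IGLV6-57, 0.10 for IGLV3-1, 0.16 for IGHG1, 0.016 for IGHG3, 0.058 for IGHD, 0.084 for IGHG4, 0.052 for IGLC3, -0.37 for IGKV1D-8 and -0.15 for IGHV3-49. When single libraries were left out the sign turned within -0.30 to 0.030 for IGHV4-39, -0.045 to 0.62 for IGHV4-28, -0.083 to 0.51 for IGHV4-61, -0.45 to 0.20 for IGHV5-51, -0.20 to 0.33 for IGKV4-1, -0.53 to 0.11 for IGLV3-1, -0.30 to 0.032 for IGHM, -0.33 to 0.049 for IGHG1, -0.091 to 0.49 for IGKV1D-43, -0.21 to 0.27 for IGKV1D-8 and -0.33 to 0.55 for IGHV3-48. The cause of these turns was not tested.

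No paired analysis was possible because the CREBBP+/- columns carry numbers that no labelled clone has. Low counts limit the lambda V genes, IGHE and most V genes: a count of 0 allows up to 3 counts, for counting error only. Clones of 1 line do not stand for other lymphomas. The VH4, IgG, IgA, VK3 and lambda constant genes share long stretches with near-identical copies, and the equal counts of IGKV1-8 and IGKV3-11 add the same number to every kappa sum.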

Other observations

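J segments of the same loci were described by counts alone, and a count of a J segment does not show that it was joined to a V segment. IGHJ5 took 62.7 to 68.9% of IGHJ counts in CREBBP+/- libraries and 61.8 to 67.0% in CREBBP+/+ libraries, and IGHJ4 took 20.2 to 24.7% in CREBBP+/- libraries and 21.8 to 28.6% in CREBBP+/+ libraries. IGKJ1 held 49.0 to 52.3% of IGKJ counts in CREBBP+/- libraries and 48.6 to 51.9% in CREBBP+/+ libraries, and IGKJ4 held most of the rest. In the lambda locus IGLJ1 took 85.2 to 98.5% of IGLJ counts in CREBBP+/- libraries and 85.4 to 97.3% in CREBBP+/+ libraries. The share of IGLJ2 was 13.2 to 14.2% in Het_8, WT_1 and WT_2 and 1.25 to 3.90% in the 7 other libraries.

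T cell receptor genes, the other family that rearranges, were described by counts alone. The 105 T cell receptor V genes summed to 5.17 to 15.5 CPM in CREBBP+/- libraries and 3.42 to 5.82 CPM in CREBBP+/+ libraries, with 15.5 and 13.3 CPM in Het_9 and Het_10. TRBC2, a T cell receptor beta constant gene, was at 59.7 CPM in Het_8 and at 89.2 and 101.7 CPM in WT_1 and WT_2. It was at 15.8 and 31.5 CPM in Het_9 and Het_10, and at 0.518 to 2.43 CPM in Het_6, Het_7, WT_3, WT_4 and WT_5. TRBC2 thus stood highest where IGHD stood lowest. The 6 T cell markers summed to 0.207 to 0.879 CPM in cluster 1, 0.242 to 1.30 CPM in cluster 2 and 0.565 to 1.42 CPM in cluster 3. Of these markers, CD2 and CD3D were at 0 in each library. Their part in the levels of TRBC2 was not tested.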
